A study of Mus musculus with 6 samples.

Results

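Kinesins are a family of motor proteins, most of which walk along microtubules. The 40 protein-coding genes examined here are those whose symbol starts with Kif or Kifc followed by a digit. They were found by that name rule among 18908 genes listed for 6 mouse RNA-seq libraries, 14222 of which are protein coding. Of the 40, 39 encode kinesins, which are all counted as motors here. The remaining gene, Kif1bp, encodes a protein that binds several kinesins and is not itself a motor. By the roles known for each gene, 13 motors were placed among the mitotic kinesins, 15 among the interphase transport kinesins, 6 among kinesins of cilia and of hedgehog signalling, and 5 among kinesins of microtubule dynamics or other roles. Kif2b, Kif12 and Kif28 are annotated in mouse by GENCODE M21 but had no row in the table.

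The study compared 3 libraries made from cells carrying a control shRNA, whose genotype is labelled WT, with 3 made from cells carrying an shRNA against VprBP1, whose genotype is labelled VprBP1 Knockdown. VprBP is the older name of Dcaf1, the substrate receptor of a ubiquitin ligase. Every library is labelled BMDM, bone-marrow-derived macrophage, and no strain, age, treatment or time point is given in the sources used here. It is not stated that replicate libraries stem from separate mice or cultures, so each p-value reflects only the spread between libraries, which may be technical. Dcaf1 itself stood at 42.2, 43.4 and 40.6 CPM in control-labelled libraries 1, 2 and 3 and at 35.9, 34.5 and 36.7 CPM in VprBP-labelled libraries 1, 2 and 3. CPM is the usual depth-scaled unit for counts, here with TMM factors, and each such value is a level of 1 transcript. The fall in Dcaf1 was -0.24 on the log2 scale (adjusted p = 0.00625, edgeR quasi-likelihood test), so the groups are named here by their labels. Of 15 macrophage markers, 10 had no row, among them Csf1r, Adgre1 and Itgam, and the remaining 5 summed to between 37.3 and 40.4 CPM under the control label and between 20.2 and 21.1 CPM under the VprBP label. That sum follows Cd68, which fell from 31.6 ± 1.19 to 1.01 ± 0.270 CPM (SD, n = 3), while Mertk, Laptm5 and Lyz2 were called higher, by 1.32, 3.61 and 1.25 on the log2 scale, and Cd14 was not called. All 10 pigment cell markers had a row, and they summed to between 21102 and 21484 CPM and between 19646 and 20156 CPM respectively. Of these 5 were called higher, such as Tyr (1.92) and Sox10 (1.81), 4 were called lower, such as Slc45a2 (-1.93) and Pmel (-1.48), and 1 was not called. Among all genes tested 37.9% were called higher and 37.0% lower, and the counts are not read as a result about these markers. Total counts per library ran from 16839445 to 21838875, and counting error is therefore small for all but the least abundant kinesins. Transcripts of the mitochondrial genome made up between 8.65% and 9.48% of counts under the control label and between 4.89% and 5.56% in the VprBP-labelled libraries. The part of that difference and of the marker differences in the kinesin results was not tested.

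Most kinesins carry a motor domain that turns the energy of ATP hydrolysis into steps along a microtubule. Among the exceptions here, Kif2a and Kif2c depolymerise microtubules, and Kif26a and Kif26b lack ATPase activity. Mitotic kinesins build and position the spindle, move chromosomes and complete cytokinesis, and their genes are known to be transcribed mainly in G2 and mitosis. Many of them carry in their promoters a cell cycle genes homology region, or CHR, which binds the MuvB complex that B-Myb and FoxM1 join, together with a CCAAT box, which binds NF-Y. Transport kinesins carry vesicles, mitochondria, lysosomes and other organelles, mainly in interphase. In pigment cells they also move melanosomes and their precursors.

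The promoters of the mitotic kinesins are shown first because the CHR was much more frequent there than in the transport kinesins. RefSeq promoter windows on GRCm38.p6, running from 250 bases before to 50 bases after a gene's start, matched 31 of the 40 members by symbol, with 12 mitotic and 10 transport kinesins among them. A CHR was searched as TTTGAA or TTCGAA and a CCAAT box as CCAAT, on both strands. In each class genes were counted, with a match in any window of a gene, whereas the shares over the whole table are of windows. A CHR match lay in 11 of 12 mitotic genes (91.7%), in 1 of 10 transport genes (10%) and in 19.2% of all 32851 windows in the table. The mitotic gene without a match was Kif18a, and the transport gene with one was Kif1a. A CCAAT box lay in 8 of 12 mitotic genes (66.7%), in 3 of 10 transport genes (30%) and in 37.4% of all windows. Both motifs together lay in 8 of 12 mitotic genes, in 0 of 10 transport genes and in 7.52% of all windows. Among the members of the other classes, Kif24, Kif26b and Kif27 held both motifs too, so the pair was not confined to the mitotic class. The RefSeq start of Kif27 lies 4175 bases inside the GENCODE gene model. The RefSeq start lies more than 1000 bases inside the GENCODE gene model for Kif2c, Kif14 and Kif17, and for the Kif1a entry that holds the CHR. Without those entries, a choice made after seeing the data, a CHR lay in 9 of 10 mitotic and 0 of 9 transport genes. These counts are descriptions of letters, with no test, and a match is not a binding site.

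The 8 mitotic windows printed here run from 120 bases before to 30 bases after the start, 5′ to 3′ on the gene's strand, and were chosen because a CHR lies in them. Kif2c, which also holds one there, is not shown because its RefSeq start lies 3867 bases inside the GENCODE gene model. Capitals mark the matches: TTTGAA or, read from the other strand, TTCAAA for the CHR, and CCAAT or, read from the other strand, ATTGG for the CCAAT box.
Kif11 (chr19:37376262-37376411, plus strand): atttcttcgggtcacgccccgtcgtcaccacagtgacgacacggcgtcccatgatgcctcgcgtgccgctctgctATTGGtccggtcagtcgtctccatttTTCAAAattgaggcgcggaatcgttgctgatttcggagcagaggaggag
Kif4 (chrX:100625945-100626094, plus strand): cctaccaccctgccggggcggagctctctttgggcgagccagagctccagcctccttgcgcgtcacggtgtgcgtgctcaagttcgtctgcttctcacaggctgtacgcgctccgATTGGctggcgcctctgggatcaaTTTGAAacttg
Kif18b (chr11:102925095-102925244, minus strand): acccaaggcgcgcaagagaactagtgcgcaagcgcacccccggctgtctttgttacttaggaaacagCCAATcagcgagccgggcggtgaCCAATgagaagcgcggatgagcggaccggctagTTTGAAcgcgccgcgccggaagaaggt
Kif15 (chr9:122950961-122951110, plus strand): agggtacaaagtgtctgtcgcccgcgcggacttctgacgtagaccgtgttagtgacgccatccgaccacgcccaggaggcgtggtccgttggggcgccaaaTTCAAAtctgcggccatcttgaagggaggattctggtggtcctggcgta
Kif20b (chr19:34922238-34922387, plus strand): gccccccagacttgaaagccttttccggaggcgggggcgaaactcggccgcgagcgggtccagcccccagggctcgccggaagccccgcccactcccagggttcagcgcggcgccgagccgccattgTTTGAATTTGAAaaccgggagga
Kif23 (chr9:61946770-61946919, minus strand): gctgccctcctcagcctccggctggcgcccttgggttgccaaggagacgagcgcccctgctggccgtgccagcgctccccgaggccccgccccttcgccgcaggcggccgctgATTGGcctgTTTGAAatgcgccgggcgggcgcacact
Kif22 (chr7:127042391-127042540, minus strand): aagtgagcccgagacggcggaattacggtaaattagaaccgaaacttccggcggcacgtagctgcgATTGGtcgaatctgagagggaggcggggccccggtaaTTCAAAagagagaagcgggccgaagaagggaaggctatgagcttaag
Kifc1 (chr17:33890604-33890753, minus strand): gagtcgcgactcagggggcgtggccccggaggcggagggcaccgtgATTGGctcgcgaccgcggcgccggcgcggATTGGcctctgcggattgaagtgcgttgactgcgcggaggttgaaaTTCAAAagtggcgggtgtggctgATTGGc
In Kif11, Kif22 and Kif15 the CHR lies just before the start, and in Kif4, Kif18b, Kif23, Kif20b and Kifc1 it lies just after it. Kif20b carries 2 adjacent copies and no CCAAT box. Over this shorter window a CHR lay in 9 of 12 mitotic genes (75.0%), in 1 of 10 transport genes and in 9.07% of all windows.

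The same window of 2 transport kinesins is given for contrast, chosen because these genes are among those with the larger called differences in their class. Kif3a holds a CCAAT box and no CHR, and Kif3c holds neither.
Kif3a (chr11:53567249-53567398, plus strand): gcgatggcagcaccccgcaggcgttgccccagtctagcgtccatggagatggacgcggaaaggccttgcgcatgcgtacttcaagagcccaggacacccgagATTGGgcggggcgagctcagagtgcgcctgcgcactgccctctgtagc
Kif3c (chr12:3365012-3365161, plus strand): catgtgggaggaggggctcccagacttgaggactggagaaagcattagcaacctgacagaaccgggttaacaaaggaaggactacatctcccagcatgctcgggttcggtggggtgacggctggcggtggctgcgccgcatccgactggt

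**Figure D1:**
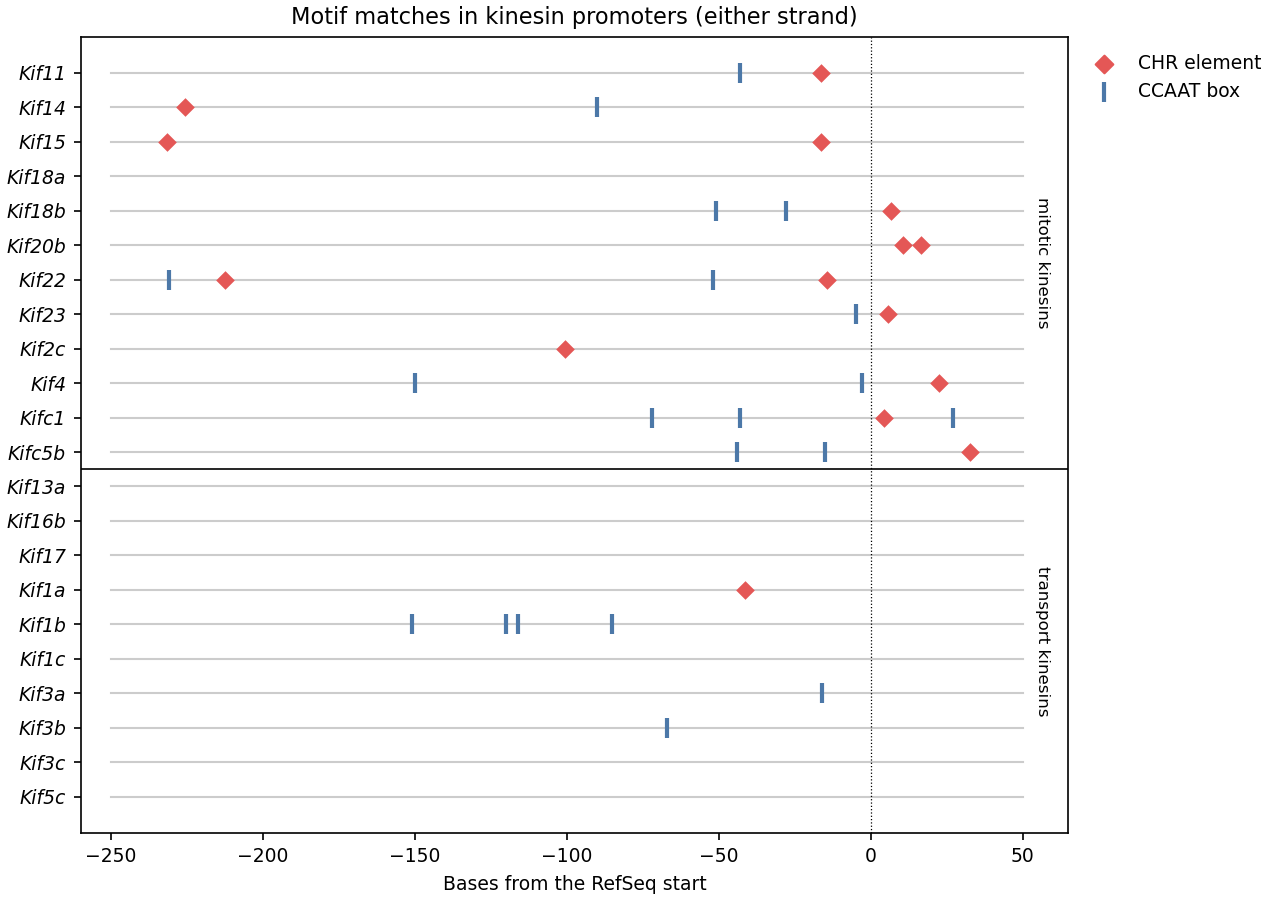
Position of CHR matches (diamonds) and CCAAT boxes (bars) in the RefSeq promoter windows of 12 mitotic and 10 transport kinesins, in bases from the RefSeq start, with all entries of a gene on 1 line. A CHR is present in 11 mitotic genes, in most of them close to the start, and in 1 transport gene.

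In expression the mitotic kinesins were low in every control-labelled library and higher in every VprBP-labelled library. All 13 were called higher at a Benjamini-Hochberg adjusted p below 0.05 in edgeR's quasi-likelihood test, with a median log2 difference of 3.80, or 13.96-fold, and a range from 1.65 for Kifc5b to 4.76 for Kif14. Among all 14641 genes tested, 75.0% were called in either direction, 37.9% higher and 37.0% lower, with a median log2 difference of -0.01. A call is therefore common in this comparison, and the size of the difference separates the classes more than the call does. All 13 rose by at least 1 on the log2 scale, against 19.4% of all genes tested, and 8 of 13 rose by at least 3, against 4.26%. In 13 of 13 the lowest VprBP-labelled library lay above the highest control-labelled library, against 39.0% of all genes tested, or 77.2% with either group higher. In bulk RNA, more cells of a dividing kind and more of a transcript per cell cannot be told apart.

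**Figure D2:**
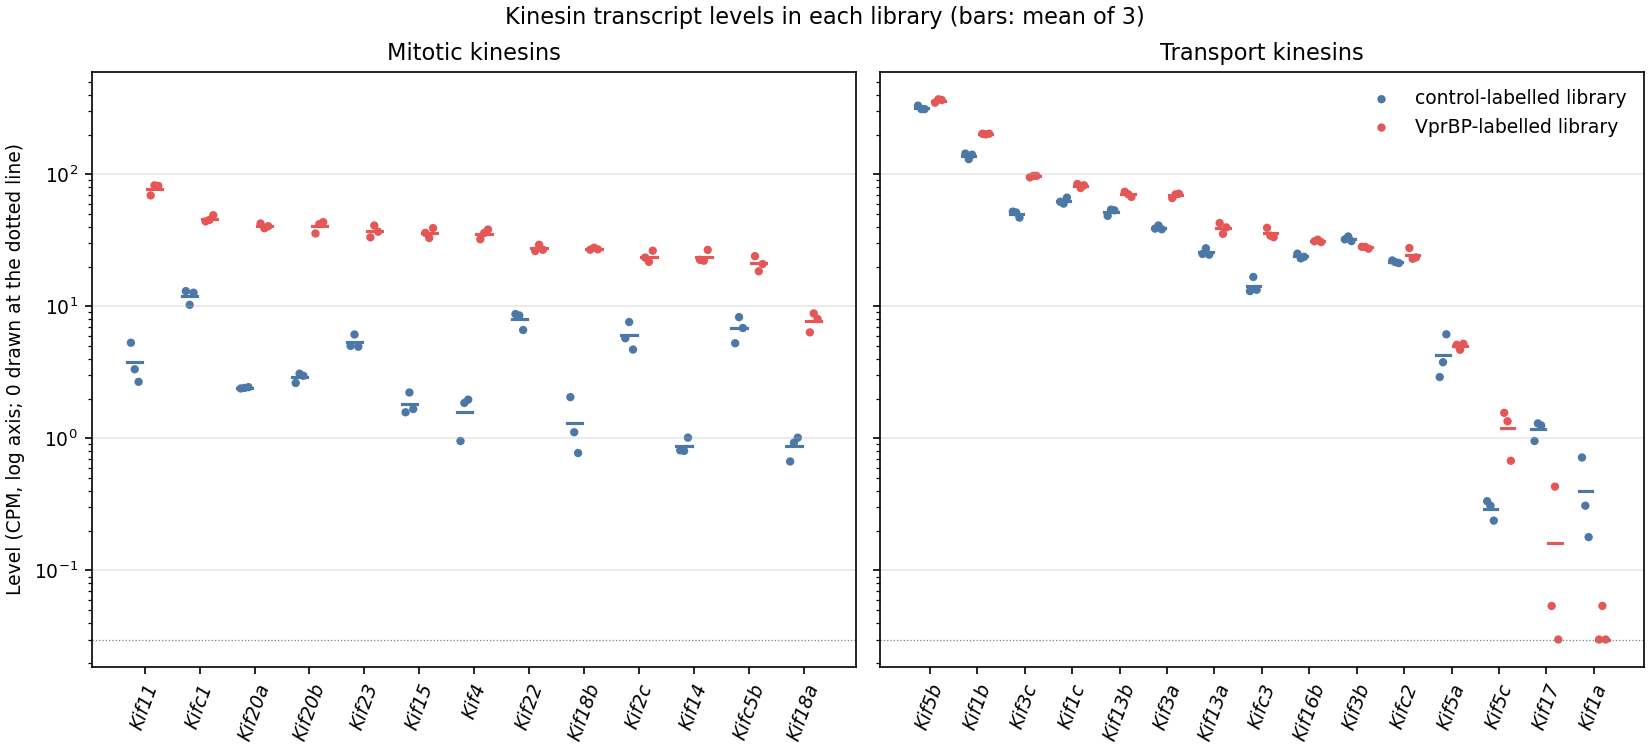
CPM on a log axis of each kinesin in the 6 libraries, grouped by class, with points for single libraries. The mitotic kinesins form separate control-labelled and VprBP-labelled clouds, whereas the 2 groups of points lie close together for most transport kinesins.

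Among kinesins that build the spindle, Kif11, the tetrameric motor that slides antiparallel microtubules apart to make the spindle bipolar, lies at chr19:37376403-37421859, plus strand (mm10). It stood at 5.31, 3.34 and 2.68 CPM in control-labelled libraries 1, 2 and 3 and at 69.3, 82.5 and 81.7 CPM in VprBP-labelled libraries 1, 2 and 3, the order used for all values that follow. The groups lay far apart, with a log2 difference of 4.33 (SE 0.14, adjusted p = 8.94e-15). Kif15, which can keep a spindle bipolar alongside Kif11, stood at 1.58, 2.23 and 1.67 CPM and at 36.03, 32.97 and 39.2 CPM. Its rise of 4.31 (95% interval 4.01 to 4.62) was close to that of Kif11, whose interval of 4.02 to 4.63 overlaps it. Kifc1, a motor that moves toward the minus end and focuses spindle poles, stood at 13.1, 10.3 and 12.7 CPM and at 44.00, 45.2 and 49.02 CPM. It had the highest level of the class per kilobase of exon in the control-labelled libraries, 3.52 CPM per kb, and rose by less, 1.93 on the log2 scale (SE 0.10, adjusted p = 3.72e-12). Kifc5b, a close relative on the same chromosome, stood at 5.26, 8.29 and 6.86 CPM and at 24.02, 18.5 and 20.9 CPM and rose by 1.65. The split of reads between these 2 genes is uncertain, since 45.8% of the 50-base stretches of the longest Kifc1 transcript also occur in that of Kifc5b. Without both genes, 11 of 11 mitotic kinesins were called higher.

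The chromokinesins, which ride on chromosome arms and push them toward the spindle equator, are Kif4 and Kif22. Kif4, at chrX:100625737-100727214, plus strand, stood at 0.956, 1.86 and 1.97 CPM under the control label and at 32.3, 35.9 and 38.2 CPM under the VprBP label. It rose by 4.51 on the log2 scale (SE 0.17, adjusted p = 5.99e-14). Its exons share 832 bases with Pdzd11 on the opposite strand, and Pdzd11 moved the other way, with a log2 difference of -1.26 (adjusted p = 1.84e-10). Kif22 stood at 8.75, 8.54 and 6.62 CPM and at 26.3, 29.3 and 26.8 CPM, so that no library of one group reached the other, and it rose by 1.78 (SE 0.12). The 95% intervals of the Kif22 and Kif4 differences, 1.53 to 2.03 and 4.15 to 4.87, do not meet.

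The kinesins that act at the plus ends of spindle microtubules include Kif18a, Kif18b and Kif2c. Kif18a, which restrains the length and motion of microtubules attached to kinetochores, stood at 0.669, 0.928 and 1.01 CPM and at 6.36, 8.85 and 8.02 CPM. It had the lowest level of the class in the VprBP-labelled libraries, 0.787 CPM per kb of exon, but its log2 difference of 3.16 (SE 0.27, adjusted p = 5.46e-09) was still 8.95-fold. Kif18b, which works with Kif2c on astral microtubules, stood at 2.06, 1.11 and 0.775 CPM and at 26.9, 27.8 and 27.04 CPM. Its VprBP-labelled libraries were close to one another, and it rose by 4.31 (SE 0.20). Kif2c, which depolymerises microtubules and corrects faulty attachments, stood at 5.74, 7.61 and 4.71 CPM and at 23.4, 21.7 and 26.4 CPM and rose by 1.99 (SE 0.15). The partners Kif18b and Kif2c therefore both rose, but their intervals, 3.90 to 4.73 and 1.68 to 2.31, lie apart.

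The kinesins of the central spindle and of cytokinesis rose together. Kif23, the motor subunit of the centralspindlin complex, stood at 5.02, 6.13 and 4.95 CPM and at 33.3, 40.95 and 36.8 CPM and rose by 2.79 on the log2 scale (SE 0.12). Racgap1, the other subunit of that complex, rose by 2.80, so that the difference was nearly the same in both subunits. Kif20a, which brings the chromosomal passenger complex to the midzone, stood at 2.39, 2.41 and 2.45 CPM and at 42.4, 39.1 and 40.5 CPM and rose by 4.07 (SE 0.12, adjusted p = 1.34e-15). Its exons share 1271 bases with Cdc23 on the opposite strand, and Cdc23 rose by less, 0.67. Kif20b, which acts in the last steps of cytokinesis, stood at 2.63, 3.09 and 2.98 CPM and at 35.7, 41.98 and 43.4 CPM and rose by 3.80. Kif14, which brings citron kinase to the midbody, stood at 0.813, 0.805 and 1.01 CPM and at 22.5, 22.2 and 26.8 CPM. It had the largest fold of any kinesin tested, 27.1-fold (log2 4.76, SE 0.18), and its partner Cit, citron kinase, rose by 4.91.

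The mitotic kinesins differed among themselves in how far they rose. Kif14, Kif4, Kif11, Kif15, Kif18b, Kif20a, Kif20b and Kif18a rose between 8.95-fold and 27.1-fold, and Kif23, Kif2c, Kifc1, Kif22 and Kifc5b between 3.13-fold and 6.92-fold. The last 5 were also those with the highest control-labelled levels per length, from 0.679 CPM per kb of exon in Kif23 to 3.52 in Kifc1, whereas the other 8 ran from 0.0847 in Kif14 to 0.557 in Kif20a. In the VprBP-labelled libraries the same 2 sets overlapped, from 4.69 to 13.5 and from 0.787 to 10.4 CPM per kb of exon. This split was chosen after the values were seen, and a fold and its control level rest on the same 3 libraries, so it is a description with no test.

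**Figure D3:**
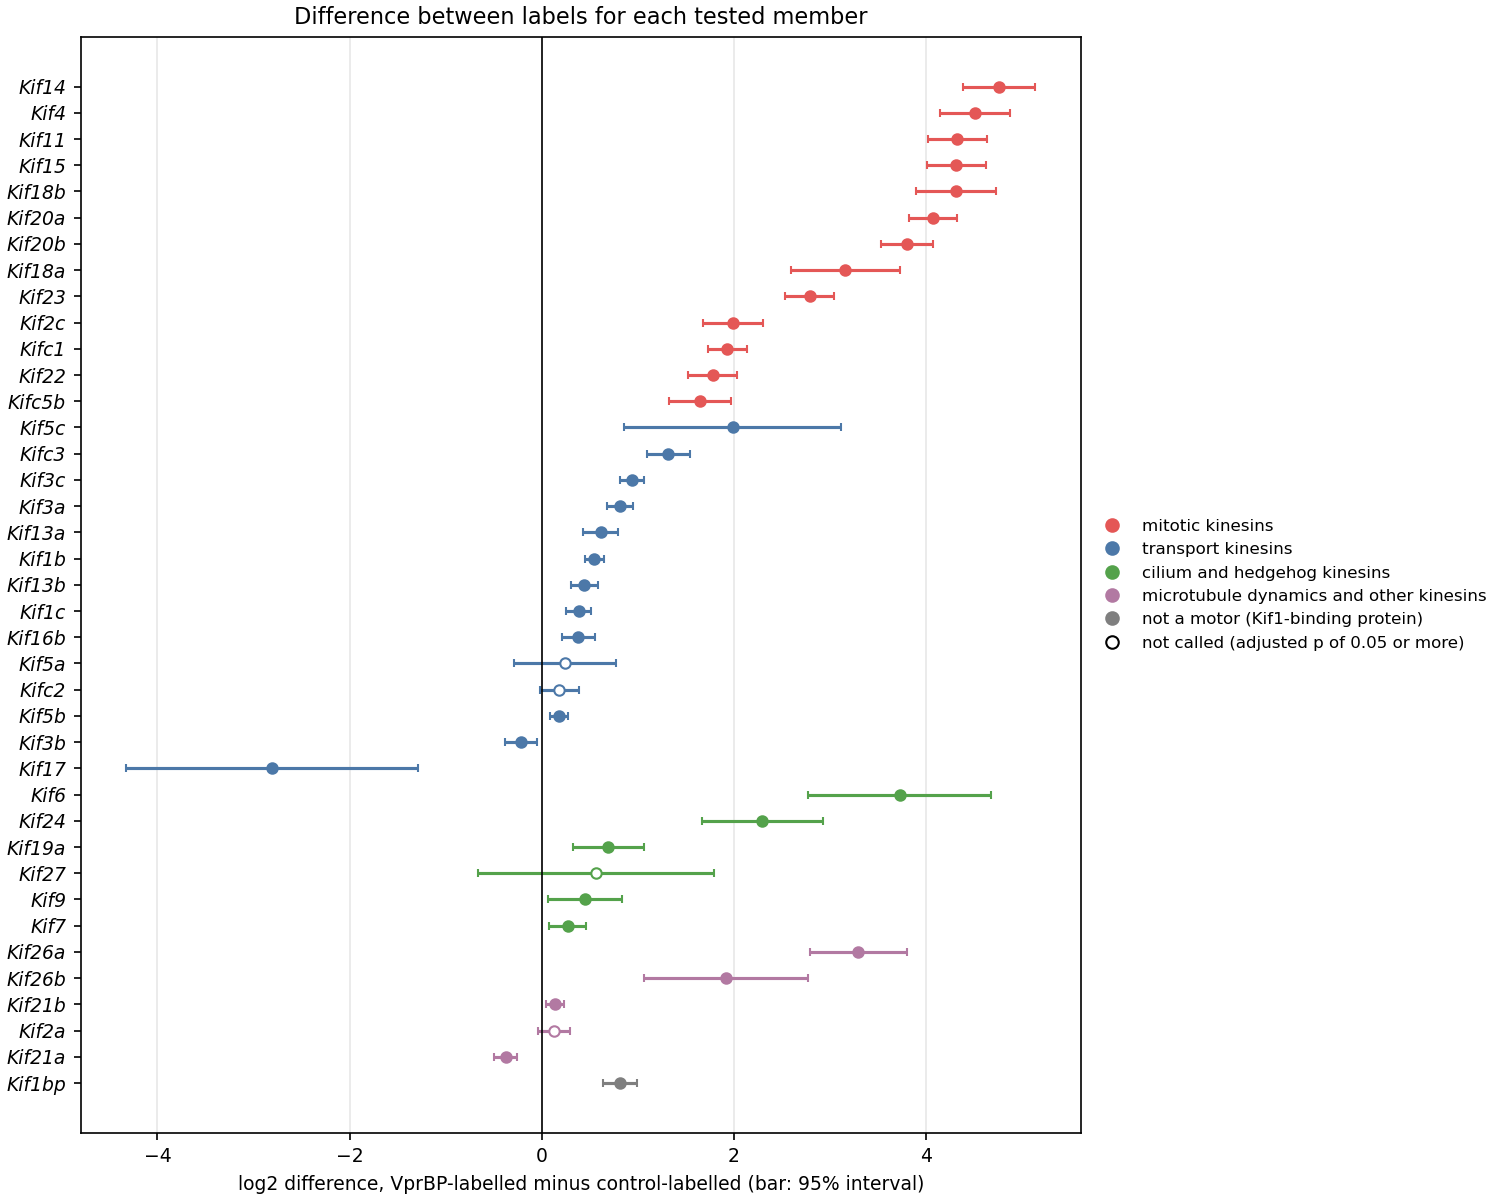
Log2 difference, VprBP-labelled minus control-labelled, of the 39 tested members with 95% intervals, coloured by class, with open circles for genes that were not called. The mitotic kinesins lie between 1.65 and 4.76, and most transport kinesins lie between 0 and 1.

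Most transport kinesins differed by less than 1 on the log2 scale. Of 15, 14 had enough counts to be tested, and of these 10 were called higher, 2 were called lower and 2 were not called, with a median log2 difference of 0.41. Differences of at least 1 on the log2 scale were called in Kif5c and Kifc3, which rose, and in Kif17, which fell by 2.81. In the untested Kif1a, 23 counts stood against 1. The share called, 12 of 14, stands beside 75.0% of all genes tested, so the number of calls is not a result about this class. By direction, the 10 called higher stand beside 37.9% of all genes tested and the 2 called lower beside 37.0%. The spans of the classes met at Kif5c: apart from Kif5c, whose level was near 1 CPM, every tested transport kinesin lay below the smallest mitotic difference. The difference between the class medians was not tested, since genes are not replicates.

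Conventional kinesin, or kinesin-1, is the best known motor for lysosomes, mitochondria and vesicles, and its heavy chain is encoded by Kif5a, Kif5b or Kif5c. Kif5b, the heavy chain found in nearly all cells, stood at 331, 312 and 312 CPM under the control label and at 349, 370.3 and 366 CPM under the VprBP label. It was the most abundant motor per length in both groups, at 39.9 and 45.3 CPM per kb of exon, and rose by a small amount, 0.18 on the log2 scale (SE 0.04, adjusted p = 0.00105). Kif5a, known mainly from neurons, stood at 2.92, 3.77 and 6.14 CPM and at 5.12, 4.69 and 5.21 CPM. The groups of Kif5a overlapped, and its difference of 0.24 was not called (95% interval -0.29 to 0.77, adjusted p = 0.402). Without control-labelled library 3 it was called, with a difference of 0.58 and an adjusted p of 0.0429, within a range of 0.0429 to 0.982 over the alternatives. Kif5c, also known from neurons, had 7, 5 and 4 counts under the control label and 29, 25 and 13 counts under the VprBP label. It was called higher by 1.99 (95% interval 0.86 to 3.11), but on few counts. Of 10 neuron markers, 5 had a row, and they summed to between 339 and 345 CPM and between 98.4 and 105 CPM. Eno2 carried the fall, from 336 ± 3.52 to 76.2 ± 4.46 CPM (SD, n = 3), whereas Map2 was called higher, from 4.48 ± 0.301 to 23.6 ± 0.957 CPM (SD, n = 3). Gap43 had no count in the control-labelled libraries. Their part in the Kif5a and Kif5c values was not tested.

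The cargo adaptors of kinesin-1 did not move as a body. Of the light chains, Klc1 rose by 0.26 on the log2 scale, Klc2 and Klc3 fell, with differences of -0.36 and -0.69, and Klc4 was not called (-0.16, adjusted p = 0.0817). For lysosomes, the small GTPase Arl8b and its effector Plekhm2 link kinesin-1 to the membrane. Arl8b stood at 578, 579.7 and 563 CPM and at 204, 222 and 211 CPM, with no overlap between the groups, and fell by 1.43 (adjusted p = 2.61e-15). Plekhm2 and Arl8a also fell, with differences of -0.56 and -0.59. For mitochondria, the adaptor Trak1 rose by 0.78 while its relative Trak2 fell by 0.50, and the mitochondrial GTPases Rhot1 and Rhot2 differed by 0.48 and -0.28, both called. The scaffold Mapk8ip1 rose by 0.996, the scaffold Mapk8ip3 fell by 0.89, and Map7d2, a microtubule protein that recruits kinesin-1, rose by 2.17.

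Kinesin-2 is a heterotrimer that moves vesicles and builds cilia, made of Kif3a with either Kif3b or Kif3c and, with Kif3b, the accessory subunit Kifap3. Its subunits moved in different directions. Kif3a stood at 38.8, 41.03 and 38.3 CPM and at 66.1, 70.5 and 71.3 CPM and rose by 0.82 on the log2 scale (SE 0.07, adjusted p = 2.42e-09). Kif3c stood at 52.2, 51.4 and 46.99 CPM and at 94.8, 97.3 and 97.4 CPM and rose by 0.94 (SE 0.06, adjusted p = 9.34e-11). Both were higher in every VprBP-labelled library than in any control-labelled one. Kif3b stood at 32.2, 33.9 and 31.2 CPM and at 28.3, 28.2 and 27.3 CPM, and was called lower by a small margin (-0.21, SE 0.08, adjusted p = 0.021). The accessory subunit Kifap3 rose by 0.82, close to Kif3a. Per kilobase of exon, Kif3b and Kif3c stood at 5.75 and 6.78 CPM under the control label and at 4.96 and 13.03 CPM under the VprBP label, so the 2 alternative partners of Kif3a went from similar levels to unequal ones. The Kif3b call was lost without control-labelled library 2 (adjusted p = 0.0744) or VprBP-labelled library 3 (0.0687), with DESeq2 (0.054) and with scaling by library size alone (0.272), and its adjusted p ran from 0.0117 to 0.272 over the alternatives. Kif3c shares 2617 exonic bases with the antisense gene 1110002L01Rik, whose log2 difference was -1.93. Kif17, a homodimeric member of kinesin-2 known from cilia and dendrites, had 20, 21 and 21 counts under the control label and 1, 8 and 0 counts under the VprBP label. It was called lower by 2.81 (95% interval -4.33 to -1.29, adjusted p = 0.00189), and the difference was -5.13 without VprBP-labelled library 2, which held most of the counts in that group. A count of 0 in a library allows up to 3 counts. Kif17 shares 74 exonic bases with Sh2d5 on the same strand, and Sh2d5 differed by -2.92.

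Of the 6 kinesin-3 motors in the transport class, which carry vesicles, lysosomes and endosomes, the 5 that were tested rose by modest amounts. The remaining motor, Kif1a, had few counts. Kif1b, which carries mitochondria and synaptic vesicle precursors, stood at 144, 130.3 and 141 CPM and at 203, 201 and 203 CPM and rose by 0.55 on the log2 scale (SE 0.05). Kif1c, which carries dense-core vesicles and integrins, stood at 62.00, 59.97 and 66.7 CPM and at 84.5, 78.8 and 82.7 CPM and rose by 0.38 (SE 0.06). Both genes showed no overlap between groups. Kif13a, which brings melanosome cargo to recycling endosomes in pigment cells, stood at 24.95, 27.5 and 24.6 CPM and at 42.8, 35.4 and 39.6 CPM and rose by 0.61 (SE 0.09, adjusted p = 5.15e-06). Its relative Kif13b stood at 48.5, 54.03 and 53.4 CPM and at 73.8, 70.7 and 67.5 CPM and rose by 0.44. These 4 differences ran only from 0.38 in Kif1c to 0.61 in Kif13a. Kif16b, which moves early endosomes, stood at 25.1, 23.1 and 23.7 CPM and at 31.1, 31.99 and 30.7 CPM and rose by 0.38. Kif1a, the motor of synaptic vesicle precursors, did not pass the filter on low counts, with counts of 15, 5 and 3 under the control label and 0, 1 and 0 under the VprBP label. The ratio of its scaled counts, control over VprBP, was 24.05 with a 95% counting interval from 3.90 to 990.6. With no filter on low counts it was called lower (adjusted p = 0.013). Madd, an adaptor that links Kif1 motors to vesicles, was not called (-0.04, adjusted p = 0.73).

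The motors of the kinesin-14 family outside mitosis are Kifc2 and Kifc3, which walk toward the minus end. Kifc3, which acts at cell junctions and in transport from the Golgi, stood at 13.1, 16.7 and 13.4 CPM and at 39.4, 34.4 and 33.4 CPM and rose by 1.32 on the log2 scale (SE 0.11, adjusted p = 3.29e-09), the largest rise among transport kinesins above 5 CPM. Kifc2 stood at 22.3, 21.6 and 21.3 CPM and at 27.7, 22.9 and 23.5 CPM. Its groups did not overlap, but its difference of 0.18 was not called (95% interval -0.02 to 0.39, adjusted p = 0.0934). With scaling by library size alone it was called (adjusted p = 0.0095, within 0.0095 to 0.357 over the alternatives).

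Summed by class and per kilobase of exon, the mitotic kinesins came to 11.7, 11.98 and 10.9 CPM per kb in control-labelled libraries 1, 2 and 3 and to 77.99, 80.8 and 84.2 in VprBP-labelled libraries 1, 2 and 3. The transport kinesins came to 100.2, 98.8 and 97.8 and to 133, 133 and 133 CPM per kb. The mitotic sum was thus 7.03-fold higher and the transport sum 1.34-fold higher in the VprBP-labelled libraries. The mitotic kinesins made up between 7.09% and 7.70% of the summed level of all 39 motors in the control-labelled libraries and between 29.99% and 31.6% in the VprBP-labelled libraries. The transport kinesins stayed the largest class in every library, with a share between 63.0% and 63.6% in the former and between 50.02% and 51.1% in the latter. The ratio of the mitotic to the transport sum ran from 0.112 to 0.121 and from 0.587 to 0.632, with all 3 VprBP-labelled libraries well above the control-labelled ones. With 3 libraries against 3, a two-sided exact permutation test could not go below p = 0.10, and none is given. Shares of a sum depend on one another, so a lower transport share here goes with a transport level that was higher. Within the transport class Kif5b alone made up 40.3 ± 0.959% in the control-labelled and 34.1 ± 1.03% in the VprBP-labelled libraries (SD, n = 3).

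**Figure D4:**
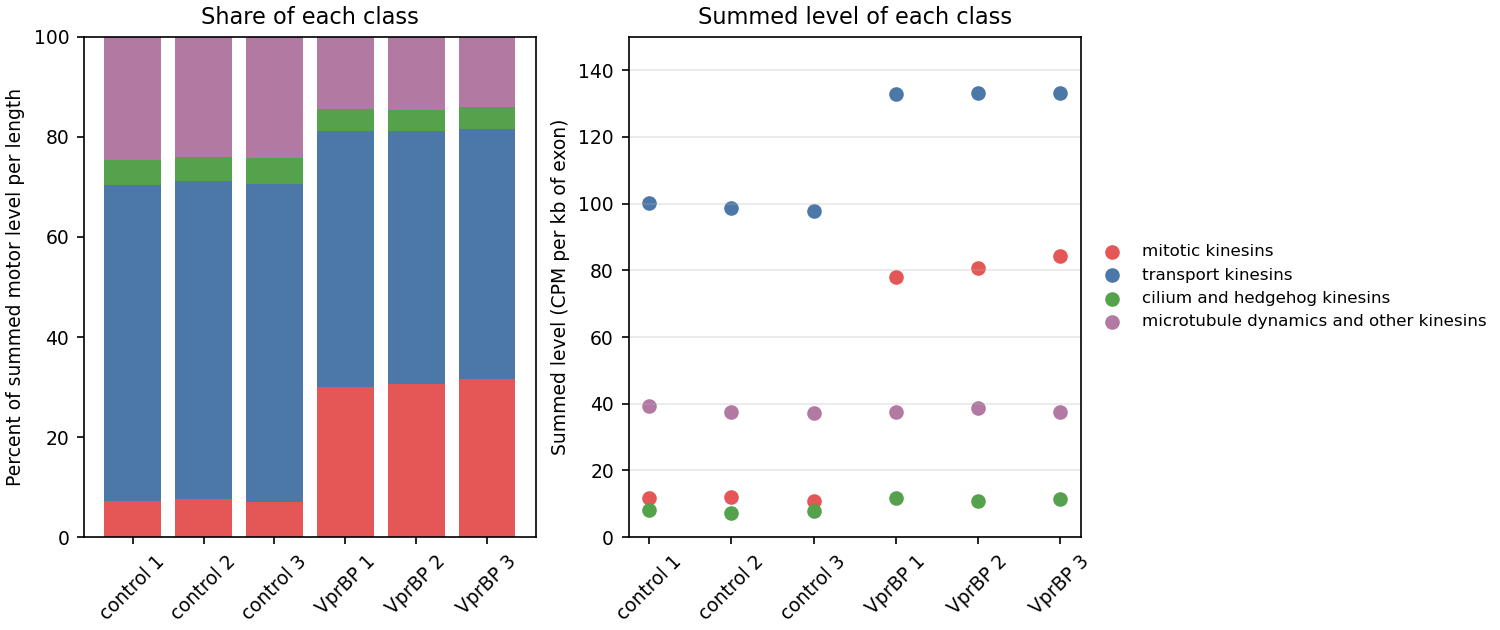
Share of each kinesin class in the summed motor level (CPM per kb of exon) of each of the 6 libraries, in percent. The mitotic share is between 7.09% and 7.70% in the control-labelled and between 29.99% and 31.6% in the VprBP-labelled libraries.

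The kinesins of cilia and hedgehog signalling were mostly low, and 5 of 6 were called higher, against 37.9% of all genes tested, with a median log2 difference of 0.63. Kif24, which restrains the assembly of cilia, stood at 2.87, 1.55 and 0.775 CPM and at 8.51, 7.99 and 9.85 CPM and rose by 2.30 (SE 0.30, adjusted p = 1.49e-06). Control-labelled library 1 was its highest control, and without it the difference was 2.91. Kif6 had 6, 2 and 5 counts and 63, 68 and 52 counts and rose by 3.72 (SE 0.45). Kif7, a scaffold of hedgehog signalling at the tip of the cilium, was the most abundant of the 6 per length. It stood at 23.3, 20.3 and 23.6 CPM and at 27.5, 26.7 and 26.8 CPM and was called higher by 0.27 (adjusted p = 0.0121), a call lost without control-labelled library 2 (adjusted p = 0.0819, within 0.000917 to 0.0819 over the alternatives). Its exons share 51 bases with Ticrr on the opposite strand, which rose by 3.24. Kif19a, which shortens the tips of cilia, stood at 5.74, 5.63 and 4.77 CPM and at 10.1, 7.72 and 8.33 CPM and rose by 0.69. Kif9, a motor of motile cilia, stood at 4.59, 5.26 and 5.25 CPM and at 6.19, 6.47 and 7.92 CPM. Its call at 0.45 (adjusted p = 0.0348) was lost without any one of the control-labelled libraries (adjusted p = 0.104, 0.056 and 0.0501) or without VprBP-labelled library 3 (0.14), with DESeq2 (0.0556) and with the replicate number as a block (0.0506), within 0.0103 to 0.14 over the alternatives. Kif27, a relative of Kif7, had 5, 5 and 11 and 12, 14 and 7 counts and was not called (0.56, 95% interval -0.66 to 1.79). Markers of multiciliated cells had a row in 5 of 10 cases and summed to between 5.26 and 6.44 CPM and between 12.03 and 15.9 CPM, mostly from Ccdc39, while Foxj1 stood at 0.361 ± 0.204 and 0.408 ± 0.120 CPM (SD, n = 3). Their part in these results was not tested.

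The last motors include some of the most abundant and some of the rarest. Kif21b, which limits microtubule growth, stood at 199.97, 197 and 194 CPM and at 219, 222 and 210.3 CPM and was called higher by 0.14 (SE 0.04). Its relative Kif21a stood at 114, 105 and 106 CPM and at 82.03, 88.2 and 81.4 CPM and fell by 0.37 (SE 0.06, adjusted p = 9.28e-06). The pair thus moved in opposite directions, each without overlap between groups. Kif2a, a microtubule depolymerase of interphase cells and of the spindle, stood at 32.3, 30.8 and 30.5 CPM and at 31.5, 34.6 and 36.00 CPM and was not called (0.13, 95% interval -0.04 to 0.29), but was called with scaling by library size alone (adjusted p = 0.0115, within 0.0115 to 0.375 over the alternatives). Its exons share 1229 bases with Dimt1 on the opposite strand, which fell by 0.98. Its mitotic relative Kif2c rose 3.98-fold, as given above. Kif26a and Kif26b, kinesins that lack ATPase activity and act in signalling, were low in the control-labelled libraries. Kif26a stood at 1.05, 1.18 and 0.954 CPM and at 11.6, 8.04 and 11.7 CPM and rose by 3.30 (SE 0.24, adjusted p = 5.93e-10). Kif26b had 20, 15 and 8 and 35, 59 and 76 counts and rose by 1.92 (SE 0.41). Large differences were therefore not limited to the mitotic kinesins: Kif26a, Kif6 and Kif24 also rose by more than 2 on the log2 scale. The kinesin-binding protein Kif1bp stood at 22.1, 24.8 and 22.8 CPM and at 39.5, 39.3 and 43.4 CPM and rose by 0.81 (SE 0.08).

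The proteins that work with each class were examined as lists, which hold 1 member of the name rule, Kif1bp, and 1 kinesin outside it, Cenpe. Among 18 partners of mitotic kinesins, 18 were called higher, with a median log2 difference of 3.03 and differences from 0.79 for Numa1 to 5.50 for Hmmr. Hmmr, which with Tpx2 organises spindle poles, stood at 1.20, 1.11 and 1.19 CPM and at 54.6, 53.5 and 52.04 CPM. Aurkb, the kinase of the chromosomal passenger complex that Kif20a carries, stood at 1.15, 0.928 and 0.954 CPM and at 34.9, 36.3 and 35.3 CPM, a rise of 5.11. Cenpe, a kinetochore kinesin whose symbol lies outside the name rule, rose by 3.65, and the Kif11-binding protein Tpx2 by 2.83. Among 22 tested partners of transport kinesins, 8 were called higher, 9 lower and 5 were not called, with a median of -0.02. Among all genes tested 75.0% were called, 37.9% higher and 37.0% lower. The split of the transport partners lies near those shares, so it is no result about that list. The mitotic partners were all called higher and had the larger median.

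**Figure D5:**
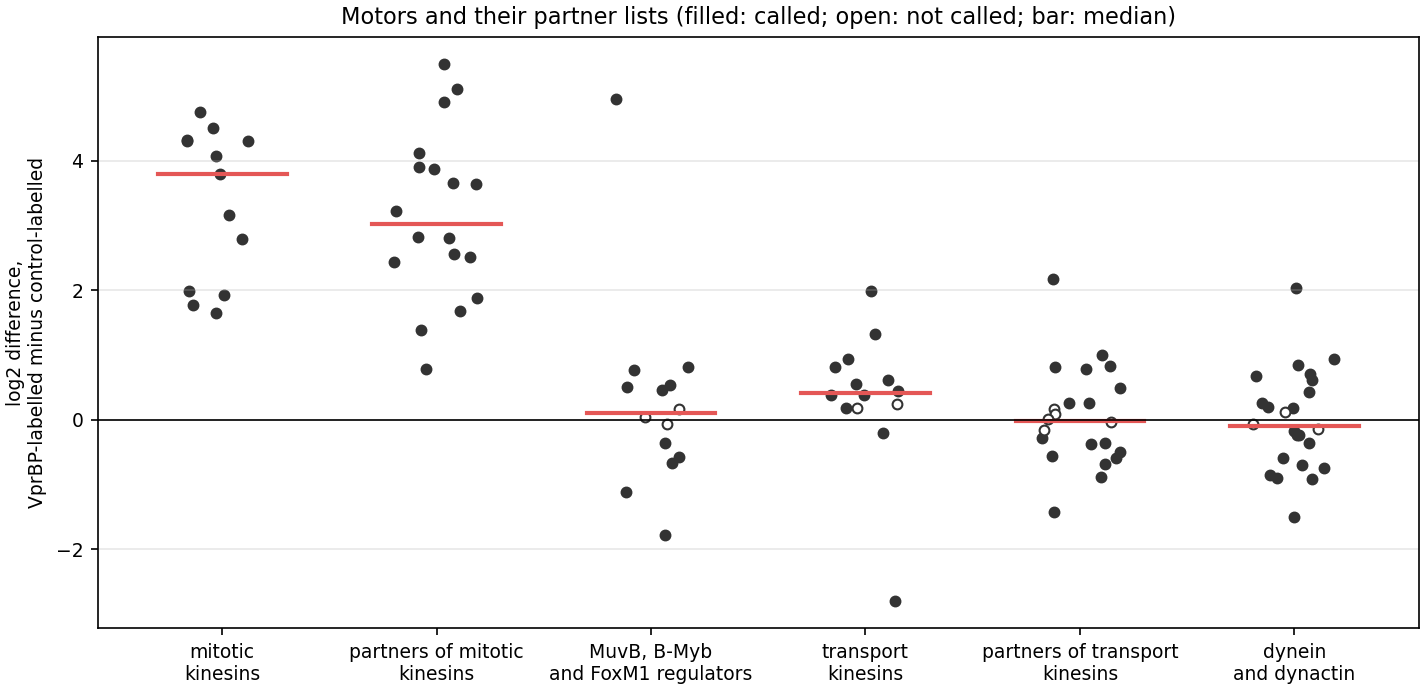
Log2 difference, VprBP-labelled minus control-labelled, with 1 point per tested gene. The columns hold the mitotic kinesins, their partners, the regulators that bind mitotic promoters, the transport kinesins, their partners, and dynein and dynactin. All 13 mitotic kinesins and all 18 of their partners lie above 0. The other lists lie on both sides of 0.

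The factors that bind the CHR and the CCAAT box were measured as transcripts. Of 14, 6 were called higher, 5 lower and 3 were not called, which is near the 37.9% higher and 37.0% lower of all genes tested and so is no result about the list. Foxm1, whose product joins MuvB on mitotic promoters, stood at 3.20, 1.18 and 2.45 CPM and at 79.1, 71.00 and 69.02 CPM and rose by 4.96 on the log2 scale (SE 0.16). This estimate exceeds the log2 difference of every kinesin tested here. Its 95% interval, 4.63 to 5.29, overlaps that of Kif14, 4.38 to 5.14. Mybl2, which encodes B-Myb, stood at 11.5, 10.7 and 9.66 CPM and at 11.6, 9.93 and 14.2 CPM, and its overlapping groups were not called different (0.16, 95% interval -0.15 to 0.47). Of the MuvB core, Lin52, Lin37 and Lin54 fell, with differences of -1.79, -1.13 and -0.58, Rbbp4 rose by 0.45, and Lin9 was not called (0.05, adjusted p = 0.766). Rbl1 and Rbl2, pocket proteins that join MuvB in resting cells, rose by 0.81 and 0.77. E2f4 and Tfdp1, also on the list, differed by -0.36 and 0.54, both called. Of the NF-Y subunits, which bind CCAAT boxes, Nfyb fell by 0.68, Nfyc rose by 0.51, and Nfya was not called (-0.07, adjusted p = 0.32). Transcript levels of these factors say nothing of their activity, and no link to the kinesins was tested.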

How the data were processed

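Transcripts of 6 mouse libraries, 3 per group, were analysed from expected counts per gene, deposited by the authors without scaling. Partek and mm10 are named, per the submitters' processing notes. Aligner, counting method, strand setting and annotation release: not given in the sources used here. For that reason, reads of overlapping or near-identical genes cannot be told apart. Of the 40 members, 17 had whole counts (within 0.001) in all 6 libraries. All 40 matched GENCODE M21 by gene ID, from which exon lengths and overlaps were taken.

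Counts were rounded and fitted over the whole table with edgeR 4.0.16 in R 4.3.3 (TMM scaling, filterByExpr, quasi-likelihood F test, group as the only term), and p-values were Benjamini-Hochberg adjusted over 14641 genes. Calls use an adjusted p below 0.05. An SE is the absolute log2 difference divided by the square root of F. Intervals cover 95%, and n is 3 libraries per group. The edgeR fit was also run on simulated counts in which 200 genes differed. Far more genes were called here, so that run does not check the fit in such a comparison. Alternatives were DESeq2 1.42.0 (size factors, and its Wald test), library-size and upper-quartile scaling, no filter, a mean of at least 1 CPM, truncated counts, a replicate block and leaving out each library. Leaving out Kifc1 and Kifc5b was chosen after seeing the data. Promoter windows came from RefSeq (GRCm38.p6).

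Every member is accounted for. Values per library are given for members with a mean of at least 5 CPM over the 6 libraries and for those a statement turns on. Of each other list, the counts and up to 5 genes with the smallest p were to be named, and further genes in the text were chosen after their values were seen. The members and lists were chosen with earlier results of these data known. Intervals and limits from counts cover counting error only, because without molecular identifiers several reads can come from 1 molecule. Not every overlap of a member with a neighbouring gene is reported here.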

Additional observations from a re-analysis of the deposited data

How the results depend on the processing

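The 13 mitotic kinesins were called higher under all 14 alternatives that kept the class as it was, leaving out each library included. The number of transport kinesins called lower was 2, and it was 1 with scaling by library size alone, 1 with a mean of at least 1 CPM, 1 with DESeq2's Wald test and between 1 and 2 when 1 library was left out. Scaling by library size alone removed the Kif3b call, as did the Wald test, and the higher minimum left Kif17 untested. With no filter the number was 3, Kif1a being added. Over all members and alternatives 529 values kept their direction and their side of the threshold, 11 lost a call, 3 gained one and 0 changed sign. Scaling by library size alone shifted the median log2 difference over all genes by 0.12, and the mitotic and transport medians to 3.92 and 0.53, a shift of the same size. Genes called over the whole table numbered between 10484 and 11605.

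Same-numbered libraries of the 2 groups did not deviate together (r of -0.03, 0.01 and -0.04 over genes), so no pairing by number was visible. These values cannot show whether such libraries were prepared as pairs. With the replicate block 10649 genes were called against 10974, and Kif9 was the only member to lose its call. Depth limits Kif1a, Kif5c, Kif6, Kif17, Kif26b and Kif27, each with under 200 counts in every group. Some large mitotic folds also rest on few control-labelled counts. Over the 3 control-labelled libraries Kif18a, Kif14, Kif18b, Kif4 and Kif15 had 46, 47, 74, 83 and 97 counts.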

Other observations

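Cytoplasmic dynein and its activator dynactin carry cargo toward the minus end, opposite to most kinesins, and 24 of their subunits and adaptors had a row. Of these, 10 were called higher, 11 lower and 3 were not called by edgeR, against 37.9% higher and 37.0% lower among all genes tested, with a median log2 difference of -0.10. Dync1h1, the heavy chain that holds the motor domain, measured 1867 ± 27.1 CPM under the control label and 1002 ± 13.1 CPM under the VprBP label (SD, n = 3), a log2 difference of -0.90. Ndel1, a dynein regulator, fell by 1.51 and Bicd2, a cargo adaptor, fell by 0.75 on the log2 scale, while the dynactin subunit Dctn2 rose by 0.94. The light chain Dynlt1b fell by 0.92. The summed level of the 24 genes was 0.748 of the control-labelled level in the VprBP-labelled libraries, beside 1.34 for the transport kinesins per length and 1.33 without the length correction. Most of that fall was Dync1h1: without it the other 23 genes stood at 0.923 of the control-labelled sum. The difference between the motor families was not tested.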
